A study of Rattus norvegicus and Mus musculus with 74 samples.

Results

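H3K27me3, a trimethyl mark that Polycomb repressive complex 2 places on the tail of histone H3, was compared by ChIP-seq in brain cortex between VPA rats given TAK-418 and control rats. The comparison rested on 6 of the 74 samples of the series, which were the 3 H3K27me3 libraries of TAK-418-treated VPA rats and the 3 of vehicle-treated controls. A further 3 libraries, from VPA rats given vehicle, entered the same fit for its estimate of the spread and are shown beside the other groups. All 9 came from Sprague-Dawley rats, an outbred laboratory stock. VPA rats had been exposed to valproate by injection before birth, and controls were healthy. The sources used here give no dose, age or length of treatment, and nothing in them ties each library to its own animal, so the p-values below describe the spread among these libraries and may not reflect that among rats. Since no unexposed rats given TAK-418 were among the samples, exposure and treatment cannot be told apart in this comparison. Out of 72824 merged rat regions, 15480 (21.3%) were tested, namely those with a called H3K27me3 interval in at least 3 of the 9 libraries.

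H3K27me3 marks genes that are kept silent by Polycomb, with the highest levels over the CpG islands of transcription factors that pattern the embryo. In neurons, many promoters of developmental and signalling genes carry it together with H3K4me3, the mark of active promoters, or switch from one to the other as cells mature. TAK-418 inhibits LSD1 (gene Kdm1a), a demethylase that removes methyl groups from lysine 4 of histone H3 and does not act on H3K27me3 itself. Valproate inhibits histone deacetylases, and exposure before birth is used in rats as a model of neurodevelopmental disorder.

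The promoter stretches of 4 genes are shown because regions with and without a CpG island are compared below. They belong to genes whose own region lay over a gene start and stood among the 10 smallest p-values of a direction, with a single gene listed and an entry in the RefSeq promoter table. Each runs 5′ to 3′ from 250 bases before to 50 bases after the annotated start on the GRCr8 assembly, with each CG dinucleotide in capitals. Genes were matched by symbol, because the H3K27me3 regions lie on the older rn5 build. The first 3 belong to regions with less H3K27me3 in VPA TAK-418 libraries after median centring, and the last to a region with more.
Mid1ip1 (chrX:14735671-14735970, minus strand): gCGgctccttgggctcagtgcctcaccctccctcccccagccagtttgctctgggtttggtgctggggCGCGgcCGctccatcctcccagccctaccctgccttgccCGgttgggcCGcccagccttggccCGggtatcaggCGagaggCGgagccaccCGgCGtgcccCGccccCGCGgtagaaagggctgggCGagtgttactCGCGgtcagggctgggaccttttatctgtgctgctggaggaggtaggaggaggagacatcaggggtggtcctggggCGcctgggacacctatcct
Pkn3 (chr3:33748420-33748719, plus strand): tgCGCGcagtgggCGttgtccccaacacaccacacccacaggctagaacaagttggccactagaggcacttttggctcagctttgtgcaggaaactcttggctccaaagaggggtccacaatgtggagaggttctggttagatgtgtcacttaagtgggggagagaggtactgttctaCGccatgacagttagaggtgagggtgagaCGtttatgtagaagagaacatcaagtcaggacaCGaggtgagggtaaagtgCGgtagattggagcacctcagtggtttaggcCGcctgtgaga
P2ry1 (chr2:147391411-147391710, plus strand): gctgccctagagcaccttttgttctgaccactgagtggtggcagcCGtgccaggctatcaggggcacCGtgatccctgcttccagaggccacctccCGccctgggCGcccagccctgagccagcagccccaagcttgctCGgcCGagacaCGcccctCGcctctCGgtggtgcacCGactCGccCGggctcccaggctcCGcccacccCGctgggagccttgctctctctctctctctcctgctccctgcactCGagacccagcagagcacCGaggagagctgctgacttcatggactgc
Tbx22 (chrX:76833564-76833863, plus strand): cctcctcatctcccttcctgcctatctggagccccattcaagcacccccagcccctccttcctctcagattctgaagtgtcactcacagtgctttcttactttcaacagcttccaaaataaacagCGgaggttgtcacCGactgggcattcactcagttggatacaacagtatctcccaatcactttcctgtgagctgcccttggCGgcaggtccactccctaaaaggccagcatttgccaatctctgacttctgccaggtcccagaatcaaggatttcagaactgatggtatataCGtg
CG reads the same on both strands, so each count covers both. It occurred 18 times in the Mid1ip1 stretch, 8 times in that of Pkn3 and 16 times in that of P2ry1, against 4 times in that of Tbx22. Among 33469 rat promoters of 300 bases in the table, 94.5% held at least 1 CG and the median was 7. Fewer CGs than in the Mid1ip1 stretch were found in 72.5% of promoters, fewer than in Pkn3 in 52.4%, fewer than in P2ry1 in 69.5% and fewer than in Tbx22 in 30.7%.

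The deposited value of a region is a mean ChIP signal on a linear scale, without read counts, so sequencing depth is unknown here. The mark ranked high at HOX genes, which are known Polycomb targets, and also at lists of marker genes of neurons and other cells. With the 20110 listed genes ranked by the level at their best-covered region over the 6 libraries, the 32 listed HOX-cluster genes, which set position along the body axis, had a median percentile of 99.6. The 27 ribosomal protein genes, active in all cells, had a median percentile of 49.0, the middle of the ranking and not its low end. The median percentile was 92.2 for 24 genes of excitatory cortical neurons and 97.4 for 23 interneuron genes. Lists of other cells ranged from 72.4 for microglia to 92.6 for progenitor genes, with 89.7 for endothelial and 83.5 for choroid plexus genes. For H3K4me3 in the same groups, the excitatory neuron genes had a median percentile of 53.2, against 18.6 for 8 choroid plexus genes and 21.4 for the HOX genes. Progenitor genes had 51.3 for that mark, astrocyte genes 44.3 and interneuron genes 34.3.

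The amount of H3K27me3 did not separate the groups. The median signal over the tested regions was 6.35, 3.31 and 3.08 in the VPA TAK-418 libraries, 3.48, 4.63 and 2.96 in the VPA vehicle libraries, and 3.83, 4.67 and 2.40 in the controls. TAK-418 library 1 was the highest of the 9 and control library 3 the lowest, and the remaining 7 lay between them with the groups overlapping. The summed signal averaged 80184 ± 34995 in VPA TAK-418 and 70999 ± 24946 in controls (SD, n = 3 each), a ratio of 1.13 (exact two-sided permutation p = 0.7, where 0.1 is the smallest p that 3 against 3 libraries allow). The summed signal ratio was 0.845 without TAK-418 library 1 and 0.950 without control library 3, so its direction rests on each of those libraries. In bulk tissue, fewer cells that carry the mark and less mark per cell cannot be told apart.

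The breadth of the mark gave the same picture. Called H3K27me3 intervals numbered 19552, 11423 and 11523 in the VPA TAK-418 libraries and 14154, 16546 and 8339 in the controls, with 12549, 15094 and 10998 in VPA vehicle. The means were 14166 ± 4665 in VPA TAK-418 and 13013 ± 4221 in controls (SD, n = 3 each; exact p = 0.7). The genome they covered averaged 287 ± 39.9 Mb in VPA TAK-418 and 280 ± 48.7 Mb in controls (exact p = 0.9). The library with the highest signal also had the most intervals in each of the VPA TAK-418 and VPA vehicle groups, and the same held for the controls.

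**Figure D1:**
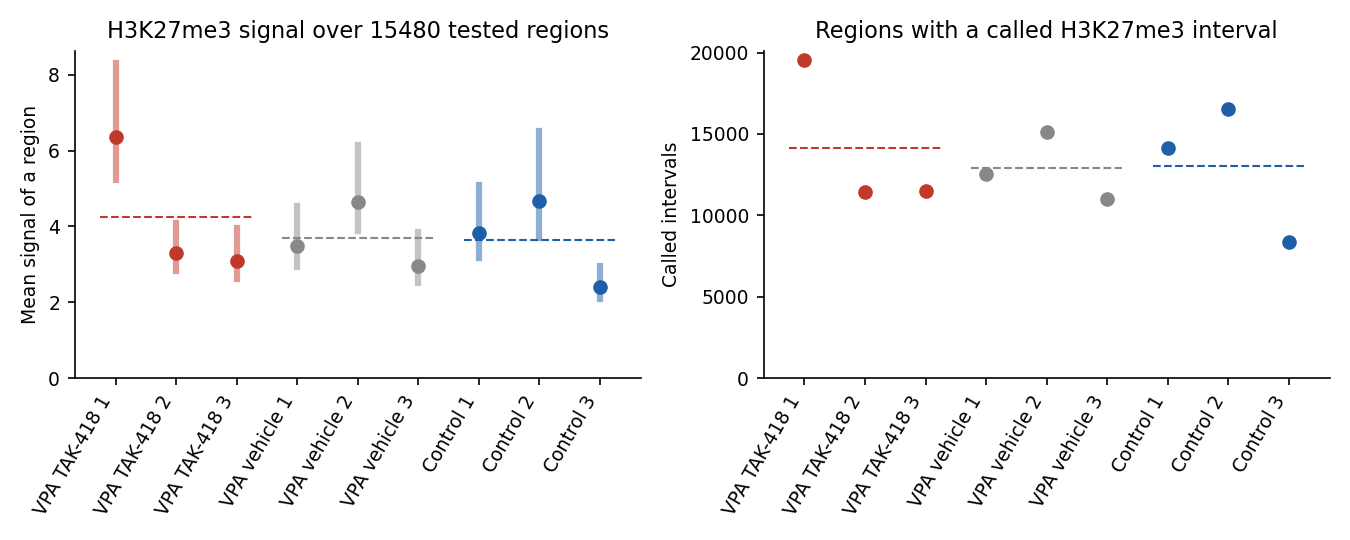
H3K27me3 per library. Left, median (point) and interquartile range (bar) of the mean signal of the 15480 tested regions. Right, number of regions with a called interval. Dashed lines are group means (n = 3 each). TAK-418 library 1 (6.35) and control library 3 (2.40) bound the others, and the 3 groups overlap in both panels.

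No single region passed the test. With limma on log2(signal + 1) and Benjamini-Hochberg adjustment, 0 of 15480 regions (0.0%) had an adjusted p under 0.05 in either direction as deposited, and limma without trend and robust settings also called 0. At an unadjusted p under 0.05 there were 11 regions (0.0711%), each higher in VPA TAK-418. The median log2 difference as deposited was 0.15, and its median standard error over regions was 0.34. After each library was centred on its own median over the tested regions, the median standard error was 0.09 and again 0 regions (0.0%) were called, with a smallest adjusted p of 0.0545. An unadjusted p under 0.05 was then reached by 1424 regions (9.2%), 607 higher in VPA TAK-418 (3.92%) and 817 lower (5.28%). Centring removes any shift shared by all regions of a library, so centred values compare regions with one another and not total amounts.

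Centred H3K27me3 values of VPA TAK-418 and control libraries did not overlap at 856 regions higher in VPA TAK-418 (5.53% of those tested) and 939 lower (6.07%). The regions in each direction differed in kind, as a description without a test. A CpG island lay in 549 of the 939 lower regions (58.5%) and in 49 of the 856 higher ones (5.72%), against 28.7% of all tested regions. No gene was listed for 217 of the lower regions (23.1%) and for 453 of the higher ones (52.9%), against 41.7% of all tested.

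CpG islands, stretches rich in CG that cover most promoters and recruit Polycomb when silent, were therefore compared with the other regions inside each library. In log2(signal + 1), the median of the 4450 island regions stood above that of the 11030 other regions by 0.29, 0.17 and 0.28 in the VPA TAK-418 libraries, by 0.33, 0.34 and 0.35 in VPA vehicle, and by 0.39, 0.58 and 0.22 in the controls. Control library 3 lay among the VPA TAK-418 libraries, and the other 2 controls lay above them. The excess averaged 0.25 ± 0.06 in VPA TAK-418 and 0.40 ± 0.18 in controls (SD, n = 3 each), a difference of -0.15 (exact p = 0.3). Without control library 3 the difference was -0.24 and the groups no longer overlapped (exact p = 0.1, the smallest possible there), whereas without control library 2 it was -0.06. After quantile normalization, which gives every library the same distribution of values, it was -0.11 with no overlap (exact p = 0.1). The groups overlapped with no interval filter (-0.11, exact p = 0.7) and for peak signal (-0.23, exact p = 0.5). They also overlapped without TAK-418 library 2 (-0.11, exact p = 0.6).

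The classes related to islands gave values of the same sign. Over 5568 regions at a gene start the difference was -0.10, over 5150 regions that also had H3K4me3 intervals -0.13, and over 5861 with H3K9Ac, an acetyl mark of active promoters and enhancers, -0.12 (each exact p = 0.3). Over 3181 regions that also had H3K9me3, the mark of constitutive heterochromatin, it was -0.006 (exact p = 0.9). Further splits were made after the values had been seen. The difference was -0.16 for the 3952 islands with H3K4me3 intervals and -0.06 for the 498 without them (exact p = 0.3 and 0.6), -0.13 for 924 islands away from a gene start, and -0.04 for 2042 gene starts without an island. None of these classes was tested against another.

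Because islands carry more H3K27me3 than other regions, the comparison was repeated within 4 equal bins of the mean level over the 9 libraries. This split of the islands was also made after the values had been seen, unlike the comparison over all islands. In the lowest bin, the island median relative to the other regions was -0.17, -0.15 and -0.09 in the VPA TAK-418 libraries and -0.04, 0.18 and -0.06 in the controls. The difference was -0.17 in the lowest bin and -0.13 in each of the next 2, without overlap of VPA TAK-418 and control libraries (each exact p = 0.1). In the highest bin it was -0.14 with overlap (exact p = 0.2). VPA vehicle libraries averaged between the groups in all 4 bins. The 4 level bins taken whole differed by 0.02, 0.02, -0.007 and -0.06 from the lowest to the highest, and 4 equal bins of region length by 0.006, 0.02, 0.02 and -0.02 from the shortest to the longest, with exact p of at least 0.3.

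**Figure D2:**
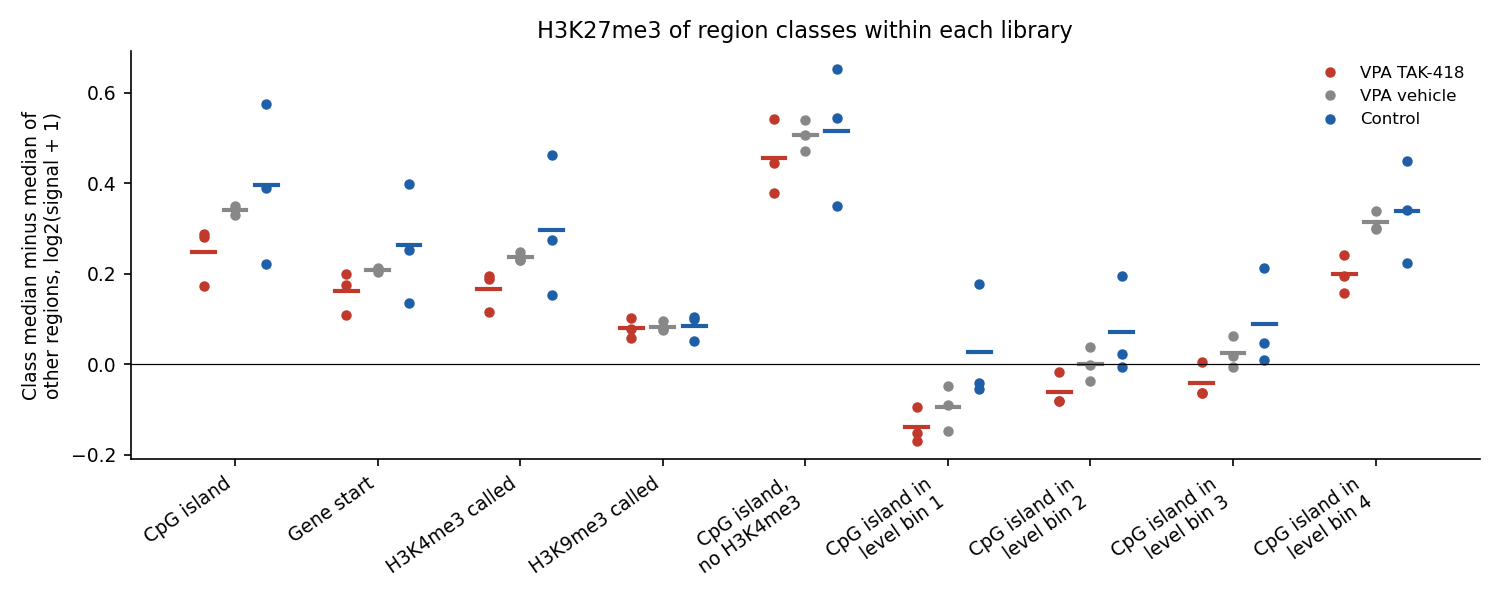
Median H3K27me3 of a class of regions minus that of the other regions, in log2(signal + 1), 1 point per library with the group mean as a bar (n = 3 each). In level bins the other regions are those of the same bin without an island. The splits of islands by level bin and by H3K4me3 were made after the values had been seen. For all islands, the VPA TAK-418 libraries lie below control libraries 1 and 2 and overlap control library 3, in level bins 1 to 3 they lie below all controls, and for regions with H3K9me3 the 3 groups cover the same range.

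**Figure D3:**
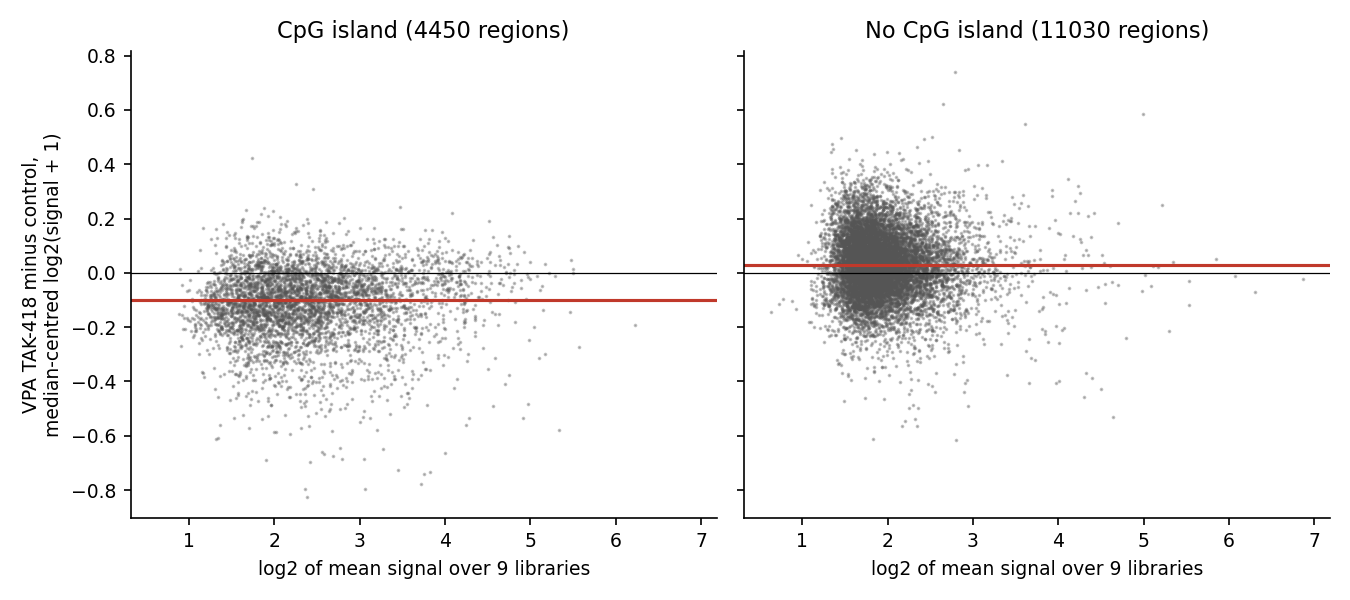
Centred log2 difference between VPA TAK-418 and control against the log2 mean signal over the 9 libraries, 1 point per tested region, with (left) and without (right) a CpG island. The red line is the median, -0.10 over island regions and 0.03 over the others.

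The 10 regions with the smallest p among those lower in VPA TAK-418 after centring had log2 differences of -0.82 to -0.33 and adjusted p of 0.0545 to 0.25. An island lay in 9 of the 10, 9 lay over a gene start and 9 had H3K4me3 intervals. Centred values of VPA TAK-418 and control libraries were apart at all 10, which the ranking by p favours, and as deposited at none. As deposited, 0 of all 15480 tested regions (0.0%) were apart in this direction.

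Mid1ip1 encodes a small protein that stimulates acetyl-CoA carboxylase, the entry enzyme of fatty acid synthesis. At its promoter (rn5 chrX:13904200-13911799, -289 bases from the gene start, 1 island), H3K27me3 signal was 6.06, 2.96 and 2.93 in VPA TAK-418, 4.58, 4.97 and 4.81 in VPA vehicle, and 6.45, 8.96 and 4.57 in controls. TAK-418 library 1 lay within the control range and the other 2 below it. After centring, the values were -0.06, -0.12 and -0.05 in VPA TAK-418, 0.32, 0.08 and 0.55 in VPA vehicle, and 0.62, 0.81 and 0.71 in controls, so that the 3 groups ran in order without overlap. The log2 difference from control was -0.79 ± 0.11 (SE, limma adjusted p = 0.0545).

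Pkn3 encodes a serine/threonine protein kinase. Its region of 9999 bp with 3 islands (chr3:13977400-13987399, 2489 bases into the gene) had signal of 4.54, 2.53 and 2.52 in VPA TAK-418, 3.65, 4.89 and 3.56 in VPA vehicle, and 4.68, 6.61 and 2.88 in controls. The log2 difference after centring was -0.58 ± 0.08 (SE, limma adjusted p = 0.0545), and 0.0180 after quantile normalization. Called intervals stood there in 1 of the VPA TAK-418 libraries and in all 3 of each other group.

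Sun3, a SUN-domain gene of the nuclear envelope known from the testis, had the remaining adjusted p of 0.0545, over an intragenic region of 1399 bp without an island or an H3K4me3 interval (chr14:89025000-89026399). Its signal was 5.40, 2.28 and 2.18 in VPA TAK-418, 2.30, 3.69 and 2.26 in VPA vehicle, and 4.37, 6.00 and 3.57 in controls. Centred VPA vehicle values (-0.33 ± 0.10) lay with those of VPA TAK-418 (-0.32 ± 0.10) and not with those of controls (0.30 ± 0.14; SD, n = 3 each).

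P2ry1 encodes a purinergic receptor for ADP that acts in glial and neuronal calcium signalling. Its promoter region (chr2:170727800-170732999) had signal of 7.46, 4.48 and 3.90 in VPA TAK-418, 5.48, 6.85 and 4.70 in VPA vehicle, and 7.52, 12.6 and 4.76 in controls. The centred means stepped through 0.27 ± 0.07 in VPA TAK-418, 0.51 ± 0.03 in VPA vehicle and 0.95 ± 0.28 in controls (SD, n = 3 each; VPA TAK-418 minus control -0.68, limma adjusted p = 0.25).

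Slc16a10 encodes a carrier of aromatic amino acids and thyroid hormones. Signal over its promoter (chr20:46976200-46981999) was 8.93, 4.55 and 5.17 in VPA TAK-418, 8.57, 11.0 and 7.10 in VPA vehicle, and 10.0, 13.8 and 5.23 in controls. After centring, VPA vehicle (1.07 ± 0.04) lay near controls (1.15 ± 0.26) and VPA TAK-418 apart from both (0.47 ± 0.12; SD, n = 3 each). Stk17b, a death-associated protein kinase, had the same arrangement, with -0.24 ± 0.29 in VPA TAK-418, 0.58 ± 0.13 in VPA vehicle and 0.59 ± 0.30 in controls. VPA TAK-418 was not tested against VPA vehicle at these regions.

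The other 4 were neuronal or glycan genes. Camk2d encodes a subunit of the calcium/calmodulin-dependent kinase CaMKII (-0.69), Cbln2 a secreted organiser of synapses (-0.46) and Chst2 a sulfotransferase of glycan chains (-0.33). The last region listed Cacna1a, the pore subunit of P/Q-type calcium channels, with the immediate early gene Ier2 and the transcriptional repressor Nacc1 (-0.39). Each of these 4 had a limma adjusted p of 0.25 and called intervals in 0 (Camk2d), 2 (Cacna1a region) or all 3 (Cbln2, Chst2) VPA TAK-418 libraries.

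The 10 regions with the smallest p among those higher in VPA TAK-418 had log2 differences of 0.26 to 0.55 and adjusted p of 0.25 to 0.44. None held an island, 2 lay over a gene start and 1 had an H3K4me3 interval. As a description, 16 regions without a named gene were passed over to reach them, against 1 for the lower direction.

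Adrb3, the beta-3 adrenergic receptor of fat tissue, was the first of them, with a region upstream of the gene (chr16:68665400-68667799). Its H3K27me3 signal was 11.2, 6.22 and 5.04 in VPA TAK-418, 5.76, 6.55 and 4.20 in VPA vehicle, and 5.06, 4.88 and 2.83 in controls. TAK-418 library 3 lay within the control range as deposited. The centred means were 0.68 ± 0.10 in VPA TAK-418, 0.47 ± 0.11 in VPA vehicle and 0.18 ± 0.14 in controls (SD, n = 3 each), with a log2 difference of 0.50 from control (limma adjusted p = 0.25).

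Without centring, the groups were apart in this direction at 356 of all tested regions (2.3%). Of the 20 ranked regions, that held only at Tbx22, a T-box transcription factor of palate development. Signal was 6.48, 4.31 and 4.09 in VPA TAK-418, 3.76, 5.92 and 3.15 in VPA vehicle, and 3.06, 3.63 and 2.37 in controls (chrX:78965600-78972799). The centred log2 difference was 0.40 (limma adjusted p = 0.35). The region shared by RGD1562948 and Acat3, a cytosolic acetyl-CoA acetyltransferase gene, had the highest level of the 10, with signal of 23.4, 12.6 and 9.68 in VPA TAK-418, 11.8, 18.3 and 8.39 in VPA vehicle, and 9.07, 11.0 and 5.79 in controls. It had called intervals in all 3 VPA TAK-418 libraries, 2 of VPA vehicle and 0 of the controls.

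The remaining regions of this direction listed genes of varied function. Klk1c2 is a kallikrein protease (0.33), Actg2 the smooth muscle gamma actin (0.29), Mmp27 a matrix metalloproteinase (0.26) and Egflam the synaptic matrix protein pikachurin (0.37). Thsd4 encodes a matrix protein with thrombospondin repeats (0.35), Bnc2 a zinc finger protein (0.34) and Pld5 a member of the phospholipase D family (0.27). Over both directions, the centred mean of VPA vehicle lay between those of VPA TAK-418 and control at 18 of the 20 regions, with Sun3 and Bnc2 the exceptions. The ranking picked regions where VPA TAK-418 and control were far apart, which by itself favours a VPA vehicle mean between them. The share of all tested regions with this order was not counted. Whether the 18 reflect a graded difference was therefore not tested.

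**Figure D4:**
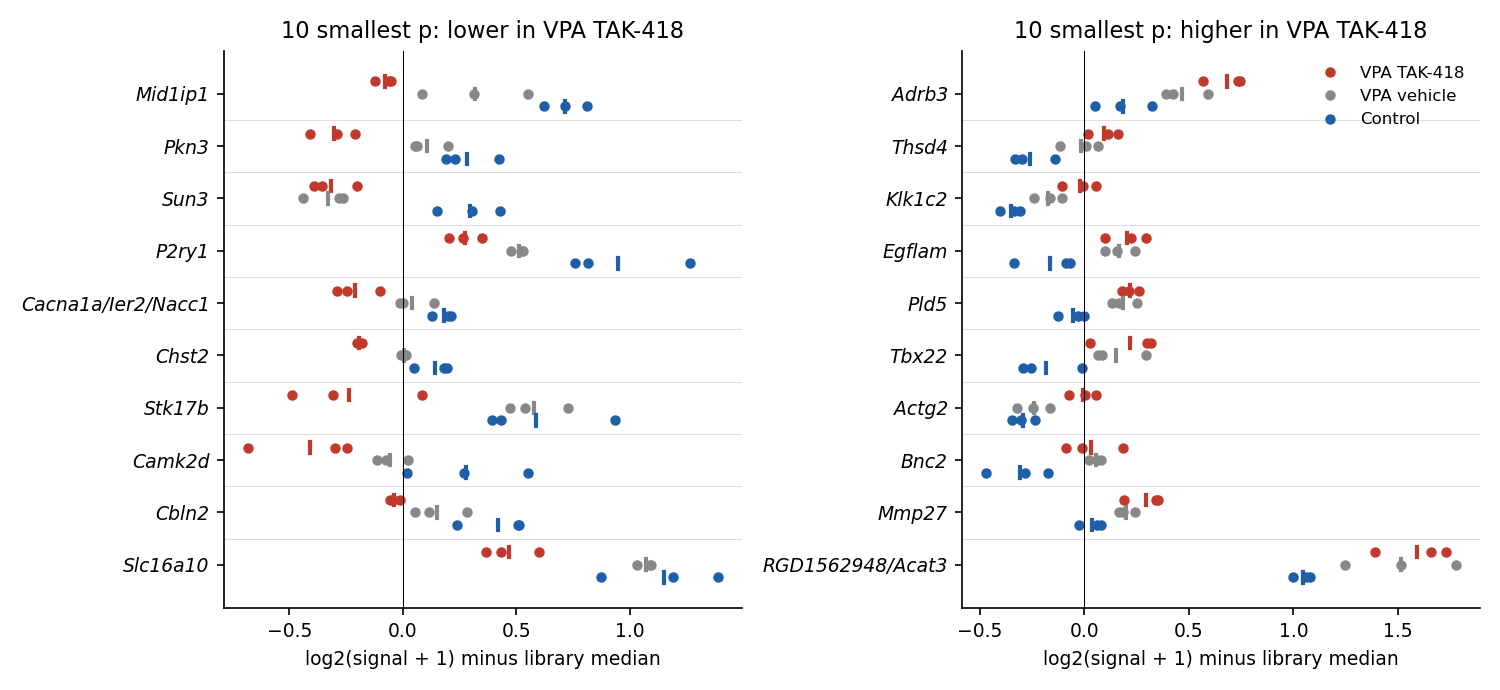
Centred H3K27me3 (log2(signal + 1) minus the library median) at the 10 regions with the smallest p in each direction, 1 point per library and a bar for the group mean (n = 3 each). Regions were ranked on the difference between VPA TAK-418 and control, so their separation was selected. No region had an adjusted p under 0.05.

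The count of calls was largest, among single libraries left out, without control library 3. Then 297 regions passed after centring, 77 higher in VPA TAK-418 (0.497%) and 220 lower (1.42%). An island lay in 184 of the 220 lower regions (83.6%) and in 2 of the 77 higher ones (2.60%), against 28.7% of all tested regions. Control library 3 had the smallest island excess of the controls (0.22, against 0.39 and 0.58). Its omission by itself therefore favours islands among the lower calls. H3K4me3 intervals stood at 87.7% of the lower regions and 5.19% of the higher ones, against 33.3% of all tested. No gene was listed for 38 of the lower (17.3%) and 47 of the higher (61.0%), against 41.7% of all tested. Of the 20 regions described above, all 10 lower and 6 of the 10 higher ones were among the 297. Sets called from largely the same libraries share regions for that reason, so such overlap is no independent support. Without both control library 3 and TAK-418 library 1, an omission chosen after the data were seen, 1007 regions passed after centring. Of these, 528 were lower in VPA TAK-418, with an island in 390 (73.9%), and 479 were higher, with an island in 11 (2.30%), and 292 of the 297 were among them. As deposited, 48 regions then passed, all lower, with an island in 35. Omission of any other single library left at most 1 region called.

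Quantile normalization of all 9 libraries called 4 regions (0.0258%), all lower in VPA TAK-418, with 6.32% of regions higher and 6.83% lower at an unadjusted p under 0.05. They were Slc16a10 and Pkn3, LOC100125362, whose centred log2 difference was -0.57, and a region with no listed gene but 1 island (chr6:39271200-39271599). This last region had signal of 14.1, 6.82 and 8.18 in VPA TAK-418, 15.1, 17.8 and 12.5 in VPA vehicle, and 15.8, 23.5 and 7.82 in controls. All 4 were also called after median centring without control library 3, a fit that shares its libraries with this one.

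At the genes with the most H3K27me3, the differences were near 0 with a wide error. At Hlxb9, the motor neuron homeobox gene also called Mnx1, signal was 70.5, 31.7 and 39.1 in VPA TAK-418, 42.4, 59.7 and 36.9 in VPA vehicle, and 49.3, 55.9 and 22.0 in controls. Its centred log2 difference was 0.01 ± 0.21 (SE, limma adjusted p = 0.99). The region of Hmx3 and Hmx2, homeobox genes of the inner ear and hypothalamus, had signal of 68.6, 32.2 and 38.2 in VPA TAK-418 and 46.0, 58.1 and 22.6 in controls. In both, TAK-418 library 1 was the highest and control library 3 the lowest, as over all regions. A list of developmental transcription factors, from PAX, GATA, FOX and LHX families and others, had 82 regions, 81 of them with an island. Their median centred difference was 0.00, with 41 below 0, beside -0.01 over all regions and -0.10 over island regions. The 10 regions of the HOX list, 9 of them with an island, had a median of 0.04, with 2 below 0. In these and in each of the other 21 lists, 0 regions were called by limma, as deposited and after centring (0.0% of all tested regions), and at an unadjusted p under 0.05 both lists had 0.

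Foxc2, a forkhead factor of vessels and skeleton, had signal of 61.6, 27.3 and 31.8 in VPA TAK-418 and 41.3, 50.3 and 18.8 in controls. Isl1, which specifies motor and striatal neurons, had 27.5, 14.7 and 14.8 in VPA TAK-418, 16.1, 23.1 and 13.1 in VPA vehicle, and 15.9, 18.2 and 8.91 in controls, with a centred difference of 0.22 (adjusted p = 0.64). Its centred values did not overlap, which was the case at 1 of the 82 regions, beside 11.6% of all tested regions. Without control library 3 the median of the developmental list was -0.14 and that of the HOX list -0.09, and after quantile normalization they were 0.07 and 0.11, so the sign of these medians depends on the scaling and on that library.

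Axon guidance genes, which encode the cues and receptors that steer growing nerve fibres, had the lowest median of the 23 lists after centring of all 9 libraries. Their 38 regions, 35 of them with an island, had a median centred difference of -0.20, against -0.01 over all regions and -0.10 over island regions. The median signal of the list was 7.11, 3.74 and 3.66 in VPA TAK-418, 4.11, 6.02 and 4.00 in VPA vehicle, and 5.21, 7.37 and 2.72 in controls. The difference lay below 0 at all 38 regions, whereas it lay above 0 at 48.2% of all tested regions. The share of island regions below 0 was not counted. In the ribosomal protein list, with an island in 15 of 17 regions, 16 lay below 0. The difference had an unadjusted p under 0.05 at 13 of the 38 axon guidance regions, beside 5.28% (817) of all tested regions. Those 817 were mostly island regions too (590, or 72.2%). There was no overlap at 10 of the 38, beside 6.07% of all tested regions and 12.3% of island regions. As deposited the median was -0.04 and after quantile normalization -0.15. Without control library 3 it was -0.27, where the glutamate receptor list also had -0.27 and lay slightly lower.

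Ephrins and their receptors act by contact between cells. The transmembrane ligand Efnb2 had signal of 3.52, 1.88 and 2.39 in VPA TAK-418, 2.96, 3.32 and 3.08 in VPA vehicle, and 3.75, 6.30 and 2.03 in controls, with a centred difference of -0.57 ± 0.15 (SE, adjusted p = 0.38). The GPI-anchored ligand Efna5 had 8.17, 3.76 and 3.96 in VPA TAK-418, 5.49, 8.39 and 5.31 in VPA vehicle, and 6.85, 11.2 and 3.65 in controls (-0.50 ± 0.14, adjusted p = 0.44). As deposited, control library 3 lay among the VPA TAK-418 libraries at Efnb2 and below all of them at Efna5. The receptor Epha7 differed by -0.37 ± 0.09 (adjusted p = 0.33). Among semaphorins, which mostly repel axons, Sema5a had signal of 4.10, 2.11 and 2.84 in VPA TAK-418, 3.04, 3.84 and 3.31 in VPA vehicle, and 4.48, 6.46 and 2.30 in controls (-0.54 ± 0.13, adjusted p = 0.33). Dcc, the netrin receptor, differed by -0.28 ± 0.09 (adjusted p = 0.47). Slit2, a secreted repellent and the axon guidance gene with the most H3K27me3, had 18.9, 9.68 and 10.1 in VPA TAK-418 and 13.8, 21.1 and 6.90 in controls (-0.20 ± 0.18). Without control library 3, limma called Sema3d, Sema5a, Ntng1, Efna5 and Epha6, each lower in VPA TAK-418, beside 1.42% of all tested regions. Of the 220 regions then called lower, 184 held an island.

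Secreted morphogens and their inhibitors had a median of -0.16 over 31 regions, 29 of them below 0. An island lay in 27 of the 31, and the median over all island regions was -0.10. Bmp2, a bone morphogenetic protein, had signal of 24.0, 11.0 and 13.0 in VPA TAK-418, 18.2, 25.5 and 14.4 in VPA vehicle, and 22.5, 36.3 and 9.56 in controls, a centred difference of -0.54 ± 0.23 (adjusted p = 0.52). Fgf20, a fibroblast growth factor, differed by -0.35 ± 0.14 (adjusted p = 0.51). The median of the WNT ligands was -0.10 over 15 regions, with 12 below 0. Without control library 3, Bmp2, Bmp3 and Grem1, an inhibitor of BMPs, were called lower and Gdf3 higher in VPA TAK-418. Over all tested regions, 1.42% were then called lower and 0.497% higher. At Gdf3 the omitted library had the highest control signal (3.32), above TAK-418 libraries 2 and 3 (3.25 and 3.06). With all 9 libraries its limma adjusted p after centring was 0.77.

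Ion channel and receptor genes of neurons had medians between -0.14 and -0.08, against -0.01 over all regions and -0.10 over island regions, and an island lay in 33 of 36 potassium channel, 12 of 16 glutamate receptor and 23 of 30 monoamine and acetylcholine receptor regions. The list of potassium channel genes had -0.12 over 36 regions, 35 of them below 0. Kcnq5, an M-current channel, had signal of 4.74, 2.32 and 2.47 in VPA TAK-418, 3.49, 4.47 and 2.82 in VPA vehicle, and 4.24, 7.55 and 2.19 in controls (-0.53 ± 0.13, adjusted p = 0.33). Kcna1, an axonal delayed rectifier, differed by -0.31 ± 0.10 (adjusted p = 0.47). Glutamate receptor genes had -0.14 over 16 regions, 14 below 0, with -0.27 ± 0.11 for Grin2d, an NMDA receptor subunit. The medians were -0.08 for GABA receptor genes (7 regions) and -0.10 for receptors of monoamines and acetylcholine (30 regions).

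No region of the neuronal marker lists was called. Excitatory neuron genes had a median of -0.11 over 21 regions, 18 below 0, with Neurod6, a factor of pyramidal neurons, at 4.67, 2.56 and 2.62 in VPA TAK-418, 2.75, 3.78 and 2.84 in VPA vehicle, and 3.30, 5.49 and 2.57 in controls (-0.31 ± 0.10, adjusted p = 0.47). Interneuron genes had -0.02 over 19 regions. Sst, the somatostatin gene, lay on the other side of 0 with 10.4, 5.44 and 5.25 in VPA TAK-418, 5.48, 7.62 and 4.93 in VPA vehicle, and 5.77, 6.48 and 3.44 in controls (0.19 ± 0.08, adjusted p = 0.52). Progenitor genes had -0.10 over 14 regions and immediate early genes, which respond to neuronal activity, -0.14 over 13.

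Regions of genes that mark other cells of the tissue or its surroundings had medians of -0.03 (astrocyte, 11 regions), -0.06 (oligodendrocyte, 11), -0.09 (microglia, 7), -0.03 (endothelial and mural, 10), -0.10 (striatum, 12) and 0.00 (choroid plexus, 6), with 0 called in each. A ribosomal protein list, expected to carry little of the mark in any cell, had -0.11 over 17 regions, 15 of them with an island and 16 below 0. That median is near the -0.10 of all island regions. Among the chromatin genes, the Polycomb list had -0.10 over 15 regions, the LSD1 and H3K4 list -0.13 over 7 and the HDAC list -0.09 over 4. Phc1, a subunit of Polycomb repressive complex 1, was apart from its list with signal of 6.60, 4.63 and 3.29 in VPA TAK-418, 3.35, 5.47 and 3.57 in VPA vehicle, and 3.31, 3.24 and 2.72 in controls (0.32 ± 0.13, adjusted p = 0.51).

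**Figure D5:**
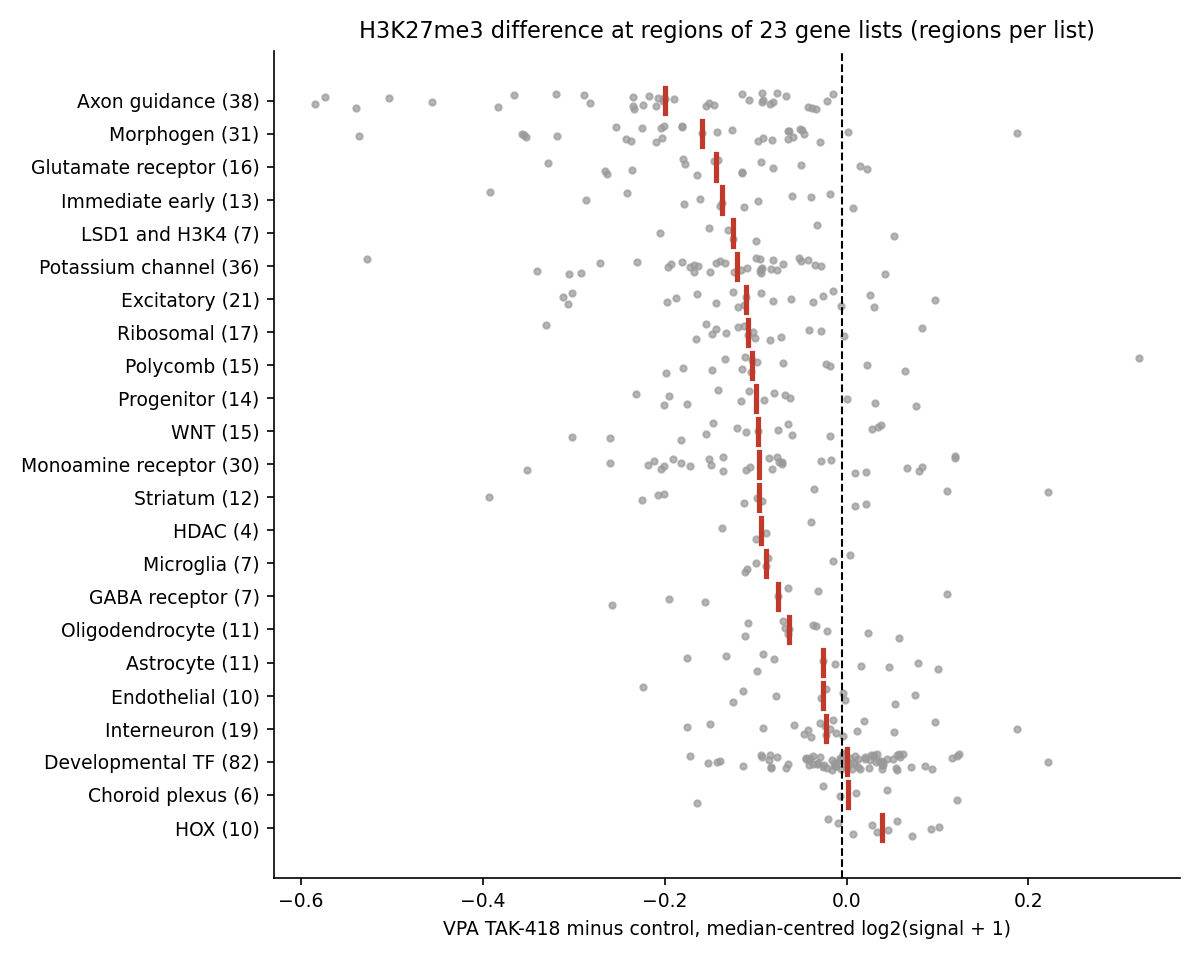
Centred log2 difference in H3K27me3 between VPA TAK-418 and control for the tested regions of 23 gene lists, 1 grey point per region and a red bar at the list median. The dashed line is the median over all tested regions (-0.01). The lists run from axon guidance (-0.20) at the top to HOX (0.04) at the bottom, and none held a called region.

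Where called intervals came and went, the numbers were small. An interval was called in every VPA TAK-418 library and no control library at 156 regions. These were 0.683% of the 22828 regions with an interval in any of the 6 libraries. The reverse, an interval in every control and no VPA TAK-418 library, held at 10 (0.0438%). An island lay in 7 of the 156 and in 4 of the 10, beside 28.7% of all tested regions. No gene was listed for 99 of the 156 and 3 of the 10, beside 41.7% of all tested regions. Of the 156, VPA vehicle libraries had an interval in none at 16, in 1 or 2 at 113 and in all 3 at 27. Median signal at the 156 was 3.55 in VPA TAK-418 and 2.48 in controls. The 10 included Slit3, a secreted axon repellent, and Basp1, a membrane protein of growth cones with signal of 3.14, 1.68 and 1.96 in VPA TAK-418 and 2.98, 5.12 and 1.95 in controls. The number of intervals called per library, given above, differed between libraries, and its part in these counts was not tested. With any 1 of the 6 libraries left out, so that fewer had to agree, the counts spanned 218 to 452 and 10 to 225, with 220 and 116 without TAK-418 library 1, and 218 and 225 without control library 3.

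The other 3 marks, each measured in 9 libraries of its own, were read at the regions tested for H3K27me3. H3K4me3 at the 4450 island regions had library medians of 14.8, 9.97 and 14.2 in VPA TAK-418, 10.3, 10.6 and 11.1 in VPA vehicle, and 6.01, 9.87 and 7.51 in controls. All VPA TAK-418 libraries lay above all controls (exact p = 0.1), the lowest of them only just. At islands with an H3K4me3 test as deposited, 3668 of 3952 (92.8%) rose in VPA TAK-418, beside 72.8% higher and 0.035% lower of all regions tested for H3K4me3, and after median centring of that mark 0 regions (0.0%) were called.

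At the 10 regions with the smallest p for lower H3K27me3, 9 could be tested for H3K4me3 and all 9 rose as deposited. An island lay in 9 of the 10, and 92.8% of islands with an H3K4me3 test rose, so this count is near the island share. Over all regions tested for H3K4me3 the share was 72.8%. At Mid1ip1, H3K4me3 signal was 46.5, 31.2 and 46.5 in VPA TAK-418, 30.6, 35.8 and 31.9 in VPA vehicle, and 14.5, 26.5 and 20.7 in controls. At P2ry1 it was 46.3, 25.8 and 38.7 in VPA TAK-418, 26.8, 27.3 and 28.5 in VPA vehicle, and 13.9, 21.2 and 17.5 in controls. The H3K4me3 log2 difference as deposited was 0.99 at Mid1ip1 and 1.01 at P2ry1 (limma adjusted p = 0.00106 and 0.000649), and after centring of H3K4me3 neither passed (adjusted p = 0.21 at each). Adrb3 and Tbx22, of the opposite direction in H3K27me3, had H3K4me3 signal under 2 in all 9 libraries.

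H3K9Ac at the island regions had library medians of 5.72, 6.76 and 4.99 in VPA TAK-418, 9.98, 10.9 and 6.04 in VPA vehicle, and 4.94, 3.98 and 4.22 in controls, with 0 regions called (0.0%). Its highest group was therefore VPA vehicle, unlike H3K4me3. H3K9me3 over all regions tested for H3K27me3 had medians of 2.30, 2.12 and 1.71 in VPA TAK-418, 1.95, 2.14 and 1.84 in VPA vehicle, and 1.56, 1.64 and 1.65 in controls, and 270 of 3181 (8.49%) rose in VPA TAK-418, beside 39.5% higher and 0.00383% lower of all regions tested for H3K9me3 as deposited. After median centring 0.00383% were lower and 0 higher. Whether the differences in H3K4me3 have a part in those of H3K27me3 was not tested.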

How the data were processed

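Frozen rat cortex was fixed with formaldehyde and immunoprecipitated for each mark, per the labels' protocols. Reads were aligned with BWA 0.7.12 to rn5, per the submitters' processing notes, while how peaks were called and libraries scaled is not given in the sources. The deposited values are a mean signal and a highest signal per merged region and library, on a linear scale with a called-interval flag, per the file headers. No read counts come with the signal, so depth is unknown. Library columns were matched to samples by name, and 0 were left unmatched. Regions with an interval in at least 3 of 9 libraries were fitted as log2(mean signal + 1) with limma 3.58.1 (trend, robust; R 4.3.3) over the 9 H3K27me3 libraries, as deposited and after subtracting each library's median, with Benjamini-Hochberg adjustment at 0.05 over all 15480 regions, and the fit was tested on simulated data. Library values were compared by exact two-sided permutation of 3 against 3. The regions, gene lists and tests were chosen with earlier results of these data known. Named regions were the 10 with the smallest p per direction, as fewer than 5 passed, the 10 highest levels, and per list the 3 highest and 2 smallest p, with unnamed gene models passed over. List members called without control library 3, Dcc, Phc1, Slit3, Basp1 and the 4 regions called after quantile normalization were chosen after their values were seen. A few list members and a set of cortex markers are not reported here, and the excitatory neuron list stands in for that set. Promoter sequences are from RefSeq (GRCr8). Alternatives covered the pseudocount, filter, peak signal, scaling, limma settings, the replicate block and each library left out.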

Additional observations from a re-analysis of the deposited data

How the results depend on the processing

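Depth behind the signal is unknown, and 3 libraries a group limit each exact test to p = 0.1 or more. Of 374 values for the 20 regions with the smallest p, 334 stayed on their side of the threshold, 40 became called, and 0 changed direction. These regions were ranked on the same libraries, which by itself favours an unchanged direction. The labels do not say whether same-numbered libraries are paired, and correlations among 3 libraries a group cannot decide it. The deviations of same-numbered VPA TAK-418 and control libraries correlated at 0.25, -0.51 and 0.11. Those of differently numbered ones spanned -0.58 to 0.59. The main fit did not pair them, and the fit with a replicate block called 0 regions on either scale. After median centring, calls numbered 3 with an interval required in at least 6 libraries, 1 from the 6 libraries of the compared groups alone, 4 after quantile normalization, and 0 to 297 with each library left out, the highest without control library 3. With both TAK-418 library 1 and control library 3 omitted, calls numbered 1007 after centring and 48 as deposited. With each library left out, the median difference spanned -0.11 to 0.32, the ratio of summed signal 0.845 to 1.34 and that of intervals 0.882 to 1.26. All 3 changed direction without TAK-418 library 1 and without control library 3, and summed peak signal gave 0.992.

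Differences of minor classes near 0 changed sign. With no filter they were 0.0015 (H3K9me3), -0.020 and 0.093 (length bins 3 and 4), -0.039, -0.041, 0.037 and 0.113 (level bins 1 to 4), 0.072 (islands without H3K4me3) and 0.0079 (gene starts without island). From peak signal they were 0.020 (H3K9me3), -0.015 (length bin 3), and -0.00032 and 0.015 (level bins 2 and 3). Quantile normalization gave 0.0020 (H3K9me3), 0.0014 (length bin 4) and -0.0085, -0.0012, 0.0080 and 0.0023 (level bins 1 to 4). The stricter interval filter gave -0.020 (length bin 1). With each library left out, they spanned -0.023 to 0.0047 (H3K9me3), -0.0023 to 0.016 and -0.062 to 0.012 (length bins 1 and 4), -0.036 to 0.094, -0.013 to 0.053, -0.045 to 0.014 and -0.165 to 0.030 (level bins 1 to 4), and -0.143 to 0.0089 (islands without H3K4me3). The cause was not tested.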
